A study of Homo sapiens with 4 samples.

Results

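Peaks of the RNA-binding protein IGF2BP2 were examined on 9 genes of translation elongation and poly(A) binding. These were EEF1A1, EEF1B2, EEF1D, EEF1G and EEF2 of the elongation factors, TPT1, whose product binds elongation factors, and PABPC1, PABPC4 and PABPN1 of the poly(A)-binding proteins. They were chosen by function, but with earlier results of these data known. Their peaks were found by Ensembl gene identifier among sense peaks, that is, peaks whose main region was neither antisense nor intergenic. Jurkat cells, a leukemic T cell line, were used, with no treatment named in the labels. IGF2BP2 was immunoprecipitated after UV crosslinking (iRIP-seq) to give 2 immunoprecipitated libraries, called replicates 1 and 2, and there were 2 input libraries, which were not analysed here. Nothing in the labels says that the replicates were separate cultures, so their spread may be technical. Each list gave a height in tags, that is, sequenced fragments, which for a peak longer than 50 nt behaves as the mean over its 50 nt bins and not as the total under the peak. The number of reads in each library is unknown, so heights were not adjusted for depth.

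Translation elongation adds amino acids to a growing chain. The GTPase eEF1A carries aminoacyl-tRNA to the ribosome, the eEF1B complex reloads eEF1A with GTP, and eEF2 drives the ribosome along the mRNA. Cytoplasmic poly(A)-binding proteins coat the mRNA tail and join it to initiation factors at the cap, and a nuclear relative acts while the tail is made. Many of these mRNAs belong to the 5′ terminal oligopyrimidine (TOP) class, whose transcripts begin with a run of C and T and whose translation follows growth signals. The question here was where the mRNAs of this machinery were bound by IGF2BP2, which is known as a reader of N6-methyladenosine in mRNA.

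Of 9 genes, 8 had sense peaks in both replicates. PABPN1 had none under its own identifier. The 8 genes held 69 of 74237 sense peaks in replicate 1 and 86 of 77288 in replicate 2 (77.5 ± 12, SD, n = 2). Of the 20428 identifiers with a sense peak in either list, 59.5% had one in both. A peak of at least 10 tags, called tall from here on, was present in both replicates in 6 of 9 genes (EEF1A1, EEF1B2, EEF1D, EEF2, TPT1 and PABPC1), against 3.96% of identifiers. In all 6 genes a tall peak of one replicate overlapped a tall peak of the other, which 2.96% of identifiers showed. EEF1G and PABPC4 had tall peaks in replicate 2 only. The limit of 10 tags was less strict there, taking 8.75% of all sense peaks against 2.73% in replicate 1. With 1 condition and 2 lists there was no test, and shares are set beside those over all sense peaks.

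Marker genes were looked up for the labelled T cell line. Of 14 T cell genes 11 had sense peaks in both replicates, against 59.5% of identifiers with one in either list. CD3D, CD3E, LCK, ZAP70 and BCL11B had tall peaks in both. CD2 had peaks in replicate 1 only and CD28 in replicate 2 only, and LAT was not matched to an identifier. Of 10 markers of other cell types 1 had peaks in both, KRT8, at no more than 5 tags. Replicate 2 held a peak in 5 of these 10, KRT8 included, of 6 tags at most. The IGF2BP2 transcript itself had 4 sense peaks in each replicate, of 5 tags at most.

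The starts of the elongation factor mRNAs are shown because peaks lay close behind them. The lines below give the first 30 bases after a RefSeq gene start (GRCh38.p14), on the gene's strand, 5′ to 3′, with the run of C and T that begins at base 1 in capitals.
EEF1A1, chr6:73521003-73521032, minus strand: CTTTTTCgcaacgggtttgccgccagaaca
EEF1B2, second start, chr2:206159895-206159924, plus strand: CCTTTTTCCTCTCTTCagcgtggggcgccc
EEF2, chr19:3985434-3985463, minus strand: CTCTTCCgccgtcgtcgccgccatcctcgg
TPT1, chr13:45341154-45341183, minus strand: CTTTTCCgcccgctcccccctccccccgag
EEF1G, chr11:62573862-62573891, minus strand: actttgcggcagcgccgagaaccccacccc

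EEF1A1, EEF2 and TPT1 each began with a run of 7 C or T, and the second start of EEF1B2 with a run of 16. EEF1G had no run at base 1, since its listed start is an A followed by a run of 4. Among 22199 starts of protein-coding genes, 4.93% began with at least 5 such bases. Distances here and below are genomic, with introns counted. In replicate 1 the nearest peak was centred behind the start shown by 57 nt in EEF1A1, 80 nt in EEF1B2, 66 nt in EEF1G, 88 nt in EEF2 and 133 nt in TPT1. These starts were shown because of their near peaks, and no share over all genes was worked out at these distances. The nearness is therefore not a result about these genes. In replicate 2 the distances were 105, 66, 88 and 133 nt in EEF1B2, EEF1G, EEF2 and TPT1, while the nearest peak of EEF1A1 was centred 657 nt away. PABPN1, at chr14:23321457-23321486 on the plus strand, began without such a run at either listed start, and PABPC1, PABPC4 and EEF1D were not matched in the table of starts. A replicate 1 peak in PABPN1, listed under another identifier, was nonetheless centred 118 nt from its 5′ end. The first listed start of EEF1B2 had no run at base 1, and its nearest peaks were centred 366 and 391 nt away, so the second start is shown for its run and its nearer peaks. The listed start need not be the one used in Jurkat cells.

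EEF1A1 encodes the main eEF1A of most tissues (ENSG00000156508.19, chromosome 6, 73515750 to 73521032, minus strand). It had 7 sense peaks in replicate 1 and 5 in replicate 2. Its highest peak reached 43 tags in replicate 1 and 76 in replicate 2, and only 10 and 9 identifiers of the lists had a higher one. These were not at the same place. Only uniquely mapped reads were kept, and EEF1A1, EEF1B2, TPT1 and PABPC1 have near-identical processed pseudogenes, so their heights are uncertain. The 43-tag peak (73520950 to 73521000) lay wholly in the 5′UTR as deposited, 57 nt from the 5′ end, and no peak of replicate 2 overlapped it. The 76-tag peak (73518900 to 73518950) lay 2107 nt from the 5′ end, with 0.38 of its length in coding sequence (CDS) and 0.62 in a noncoding exon, and no peak of replicate 1 overlapped it.

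The tall EEF1A1 peak present in both replicates was a CDS peak (73518450 to 73518600) with 13.7 tags in replicate 1 and 18.7 in replicate 2. Another tall peak, of 11 tags, lay in CDS in replicate 1 alone. In the 5′UTR, a stretch of 350 nt with 6.71 tags in replicate 2 covered peaks of 4 and 8 tags of replicate 1. The 2 remaining peaks of replicate 2, of 5 tags each, were centred 19007 and 21907 nt from the 5′ end and thus beyond the RefSeq gene, so that 10 of the 12 peaks carrying the identifier lay inside it. The bases of the 43-tag peak that the start table reaches, from base 33 of the gene on, are printed because the peak was the highest of replicate 1.
EEF1A1, chr6:73520983-73521000, minus strand: gGTAAGTgccgtgtgtgg

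The capitals mark GTAAGT, searched on the gene's strand only, letters typical of the first bases of an intron. They occurred in the first 50 bases of 0.680% of protein-coding starts. No exon annotation was read here, so whether an intron begins there was not tested, and the 5′UTR label of the peak is the deposited one.

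The 3 subunits of the eEF1B exchange complex differed in the number and height of their peaks. EEF1B2, the catalytic alpha subunit (ENSG00000114942.14, chromosome 2, 206159609 to 206162928, plus strand), had 3 peaks in replicate 1 and 4 in replicate 2. Its highest peak lay at the same place in both, from 206160550, with 23 and 19 tags and 0.88 or more of its length in CDS. The other shared peak, from 206159950, spanned 5′UTR and CDS with 18 tags in replicate 1 and 13.5 in replicate 2. Both shared peaks had the lower height in replicate 2, with a median ratio of 0.788, but they were 100 nt long there and 50 nt long in replicate 1. Their tags summed over bins ran the other way, with 18 against 27 and 23 against 38 in replicates 1 and 2, so the direction depended on the measure. The replicate 2 list also held an 18-tag peak (206162000 to 206162050) with no counterpart, of which 0.74 was intron.

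EEF1G, the gamma subunit that anchors the complex (ENSG00000254772.10, chromosome 11, 62559596 to 62573891, minus strand), had 3 and 5 peaks. Its highest peak (62572550 to 62572650, 0.67 CDS) had 7.5 tags in replicate 1 and 16.5 in replicate 2. A peak of 4 tags in replicate 1 and 16 in replicate 2 lay 66 nt from the 5′ end, over noncoding exon, CDS and 5′UTR together. The median ratio of replicate 2 to replicate 1 was 3.10 over these 2 pairs, the highest of the 7 genes with overlapping peaks. A 13-tag CDS peak was in replicate 2 alone.

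EEF1D, the delta subunit and a second exchange factor (ENSG00000104529.18, chromosome 8, 143579728 to 143597415, minus strand), had the most peaks of the 9 genes, 22 and 30, and low ones. Its median height was 4.75 tags in replicate 1 and 6 in replicate 2. The tall peaks in both lists lay in the last 10% of the gene: the one at 143580000 had 11 and 13.7 tags in CDS, and the one at 143581200 had 11 and 15 tags with its larger part in a noncoding exon. Of its 22 peaks in replicate 1, 10 were overlapped, and all 10 were higher in replicate 2 by height, but 8 of the 10 pairs by summed tags. Main regions of its peaks in replicates 1 and 2 were the 5′UTR in 6 and 5, CDS in 7 and 11, and intron in 5 and 12.

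EEF2, the translocase (ENSG00000167658.16, chromosome 19, 3976056 to 3985463, minus strand), carried tall peaks from near its 5′ end to near its 3′ end. These covered 700 nt in replicate 1 and 2050 nt in replicate 2 of its 9408 nt. That length is genomic and includes introns, so the covered share of the mRNA was not worked out. Of its 12 peaks in replicate 1, 8 were tall, and of its 16 in replicate 2, 15 were tall. The highest peak lay at the same place in both replicates (3985350 to 3985400), 88 nt from the 5′ end, with 36 tags in replicate 1 and 73 in replicate 2. It spanned several annotations, with 0.54 of its length in intron, 0.4 in the 5′UTR and 0.06 in CDS. Its main region was therefore called intron, although it also covered a border of 5′UTR and CDS.

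Further in, CDS peaks of EEF2 were shared at 3982800 to 3982850 with 21 and 54 tags and at 3983100 with 28 tags in replicate 1 and 34.8 in replicate 2. The latter peak was longer in replicate 2, and also covered a 14-tag peak of replicate 1. Near the 3′ end, a 12-tag CDS peak of replicate 1 lay within a 300 nt peak of 19 tags in replicate 2. All 8 overlapped peaks of replicate 1 were higher in replicate 2 by height, with a median ratio of 1.83. By summed tags 8 of the 9 pairs of EEF2 were higher there. Peaks without a counterpart were also tall, up to 24 tags in replicate 1 (3979800 to 3979900) and 40 tags in replicate 2 (3980650 to 3980700), so that the lists differed in which parts of the CDS carried them. All 12 peaks of replicate 1 and 14 of 16 in replicate 2 held some CDS.

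TPT1, also known as TCTP (ENSG00000133112.17, chromosome 13, 45333471 to 45341183, minus strand), had 2 peaks in replicate 1, and both were tall and overlapped. The first, 133 nt from the 5′ end, spanned 5′UTR and CDS (45341000 to 45341100) with 14 and 27 tags. The second lay from 45340700, mostly in CDS, and was the highest of the gene in both replicates with 27 and 30 tags. In replicate 2 there were 9 peaks, and the 7 others had 5 to 21.3 tags, of which the 2 tall ones lay in CDS and 3 in the 3′UTR.

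PABPC1 encodes the main cytoplasmic poly(A)-binding protein (ENSG00000070756.17, chromosome 8, 100702916 to 100722088, minus strand) and had 17 and 13 peaks. Its highest peak started at 100709100 in both lists, 12938 nt from the 5′ end, with 13 tags in replicate 1 and 28 in replicate 2, over a border of CDS and intron. A cluster of peaks, mostly in CDS, at 100706650 to 100707000 was shared too, with 6 to 11 tags in replicate 1 and 5 to 9.67 in replicate 2. Of its 8 overlapped peaks in replicate 1, 4 were higher in replicate 2 and 4 lower (median ratio 0.976), and by summed tags 5 were higher. An 11-tag 5′UTR peak, 413 nt from the 5′ end, was in replicate 1 alone. The replicate 2 list alone held 2 peaks of 16 tags, one mainly in the 3′UTR and one in equal parts CDS and intron.

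PABPC4, its inducible relative (ENSG00000090621.15, chromosome 1, 39560816 to 39576790, minus strand), had 3 peaks in replicate 1 and 4 in replicate 2, and none overlapped. The highest had 6 tags in replicate 1, in the 5′UTR, and 10 tags in replicate 2, in CDS. One peak of replicate 1 (39569850 to 39569900, 4 tags) lay within the interval of PABPC4-AS1, on the other strand.

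PABPN1, the nuclear poly(A)-binding protein (chromosome 14, 23321457 to 23326163, plus strand), had 7 peaks on its strand in each replicate, all under the identifier ENSG00000258643. These peaks lay inside the RefSeq interval of the readthrough gene BCL2L2-PABPN1 (23306833 to 23326163), which holds PABPN1, and the lists cannot tell the genes apart. They reached 7 tags in replicate 1 and 22 in replicate 2. The 22-tag peak (23322150 to 23322200) had 5 tags in replicate 1, with 0.6 of its length in intron. Of the 7 peaks, 4 in replicate 1 and 3 in replicate 2 were overlapped by the other list. By position all 9 genes thus had peaks in both replicates.

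**Figure D1:**
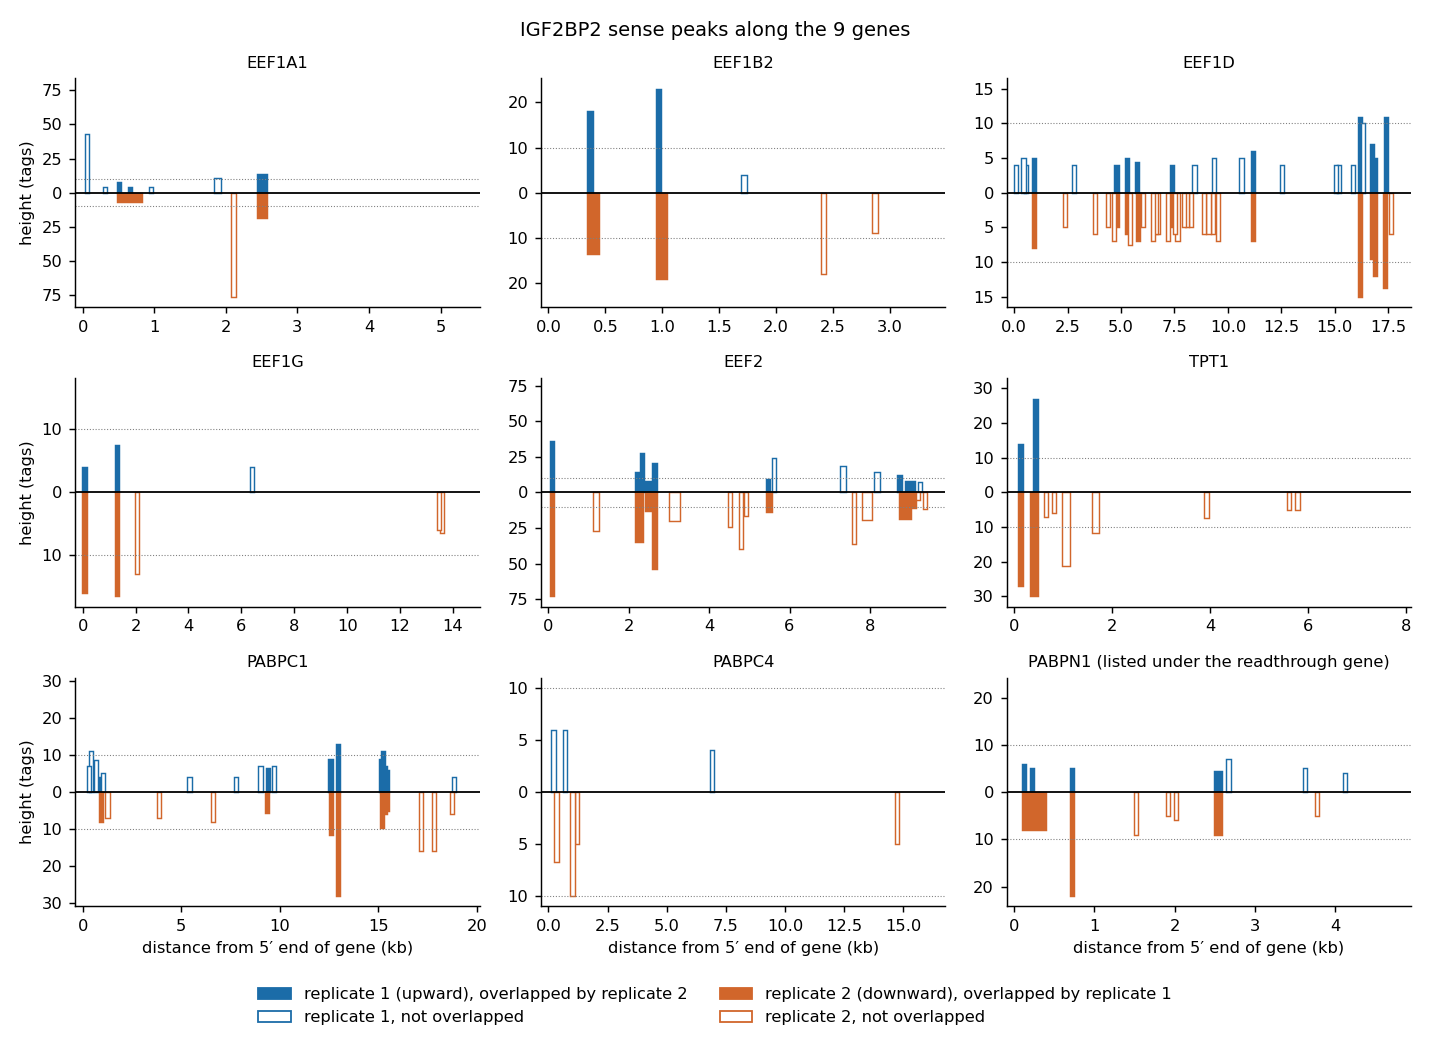
Height in tags of each sense peak (vertical axis, replicate 1 upward, replicate 2 downward) against the distance of its centre from the 5′ end of the RefSeq gene in kb, with a scale for each gene; filled bars had an overlapping peak in the opposite list, the dotted lines mark 10 tags, and narrow peaks are drawn wider than they are. In EEF1B2, EEF1G, EEF2 and TPT1 filled bars stand near the 5′ end in both directions, the highest EEF1A1 bars of 43 and 76 tags stand at different places, and 2 peaks of EEF1A1 beyond the gene are not drawn.

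**Figure D2:**
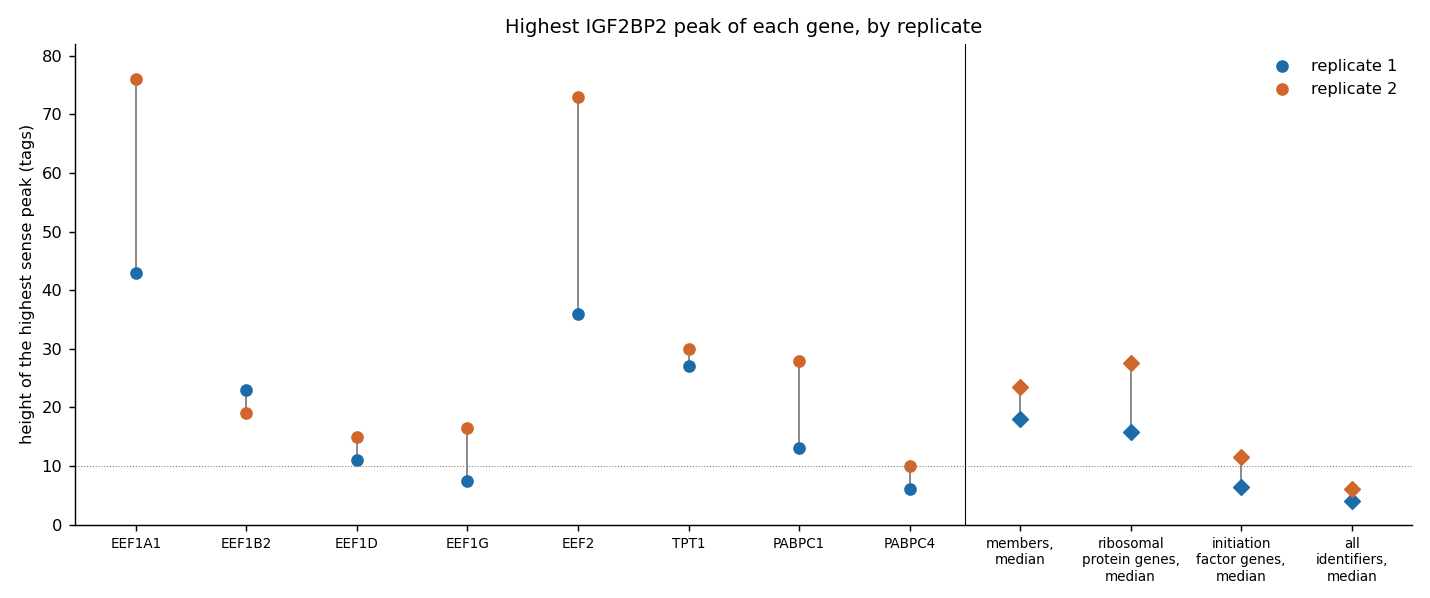
Height of the highest sense peak of each gene in tags (circles, replicates 1 and 2 joined by a line), with the medians (diamonds) over the members, over the ribosomal protein and initiation factor genes, and over all identifiers with a peak in that list; the dotted line marks 10 tags. EEF1B2 alone is higher in replicate 1 by this height, a mean over bins, and EEF1A1 and EEF2 stand highest in both replicates.

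Peaks labelled with both 5′UTR and CDS were then counted, a feature chosen after the values were seen. No exon annotation was read, so whether each lay over the start of the coding sequence was not checked. Peaks that held both 5′UTR and CDS made up 5 of 69 in replicate 1 (7.25%, against 1.04% of all sense peaks) and 6 of 86 in replicate 2 (6.98%, against 1.36%). In EEF1B2, EEF1G, EEF2 and TPT1 such peaks of both replicates overlapped, which was so for 1.93% of identifiers. EEF1D had such peaks in each replicate at different places. Peaks that held CDS and intron made up 27.5% and 26.7% of the genes' peaks, against 15.5% and 21.0% of all sense peaks. The shares over all sense peaks were not matched for region, height or gene length. Of those peaks, 69.2% in replicate 1 and 62.4% in replicate 2 were mainly intron, so the gaps need not be particular to these genes.

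By main region, that is, the annotation that covers the largest part of a peak, CDS held 33 of 69 peaks in replicate 1 (47.8%, 95% Wilson interval 36.5 to 59.4) and 45 of 86 in replicate 2 (52.3%, 41.9 to 62.6), a mean of 50.1% ± 3.18 (SD, n = 2). Over all sense peaks the CDS share was 19.9% and 25.6%. EEF2 gave 10 of the 33 CDS peaks in replicate 1 and 13 of the 45 in replicate 2. Introns held 9 peaks (13.0%) and 18 peaks (20.9%) of the genes, against 69.2% and 62.4% of all sense peaks. The 5′UTR held 17 peaks (24.6%, 16.0 to 36.0) in replicate 1 and 8 (9.30%, 4.79 to 17.3) in replicate 2, against 2.78% and 3.33%. The 5′UTR peaks came mostly from EEF1D, with 6 and 5, and EEF1A1, with 5 and 1. These labels are as deposited and were not checked against an exon annotation. The 3′UTR held 4 peaks (5.80%, 2.28 to 14.0) and 9 peaks (10.5%, 5.60 to 18.7), against 3.65% and 4%. Intervals cover counting error only, since sequenced fragments after PCR are not independent molecules and peaks of one gene share a transcript.

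Pooled over the genes, peaks were also taller than the rest, and height went with region. Tall peaks made up 21 of 69 in replicate 1 (30.4%, 20.8 to 42.1) and 35 of 86 in replicate 2 (40.7%, 30.9 to 51.3), against 2.73% and 8.75% of all sense peaks. EEF2 held 8 of the 21 and 15 of the 35, so the genes did not share this evenly. Median heights in replicates 1 and 2 were 4.75 and 6 tags in EEF1D and 6 and 5.88 in PABPC4, against 4 and 5 over all sense peaks. Among tall peaks alone the CDS share was 66.7% (45.4 to 82.8) and 71.4% (54.9 to 83.7) in the genes, and 58.5% and 59.9% over all tall sense peaks, which lie inside these intervals. The intron share of tall peaks was 9.52% (2.65 to 28.9) and 8.57% (2.96 to 22.4) in the genes, against 25.4% and 26.5% over all tall sense peaks, of which the replicate 2 value lies above the genes' interval.

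How far the replicates placed peaks at the same sites was then examined. In replicate 1, 35 of 69 peaks (50.7%, 39.2 to 62.2) were overlapped by at least 1 nt on the same strand in replicate 2, against 16.6% of all sense peaks. In replicate 2 it was 32 of 86 (37.2%, 27.7 to 47.8), against 15.8%. Within the tall peaks, however, the genes' share was 66.7% (45.4 to 82.8) and 54.3% (38.2 to 69.5), and the share over all tall sense peaks 73.5% and 62.4%, so at that height the genes' share stood below that of the list, which lies inside the genes' intervals. Within CDS peaks the shares were 66.7% (49.6 to 80.2) and 46.7% (32.9 to 60.9), against 45.8% and 35.0%.

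The 35 overlapped peaks of replicate 1 formed 36 pairs with replicate 2, and 13 pairs were tall on both sides. In 28 of the 35 the replicate 2 peak was higher, with a median ratio of 1.36. Over all 12358 overlapped sense peaks the replicate 2 peak was higher in 78.0%, with a median ratio of 1.41. Height is a mean over bins, and peaks of a pair often differed in length. In the 16 pairs of equal length the replicate 2 peak was higher in 14, with a median ratio of 1.61, against 1.43 over all 8505 sense pairs of equal length. By summed tags 30 of the 36 pairs were higher in replicate 2, and by height 29. The ratios of EEF1G, where both pairs were of equal length, and EEF2 were 3.10 and 1.83. Those of EEF1B2 and PABPC1 were 0.788 and 0.976 by height, but EEF1B2 had no pair of equal length and PABPC1 had 3, of which 1 was higher in replicate 2.

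**Figure D3:**
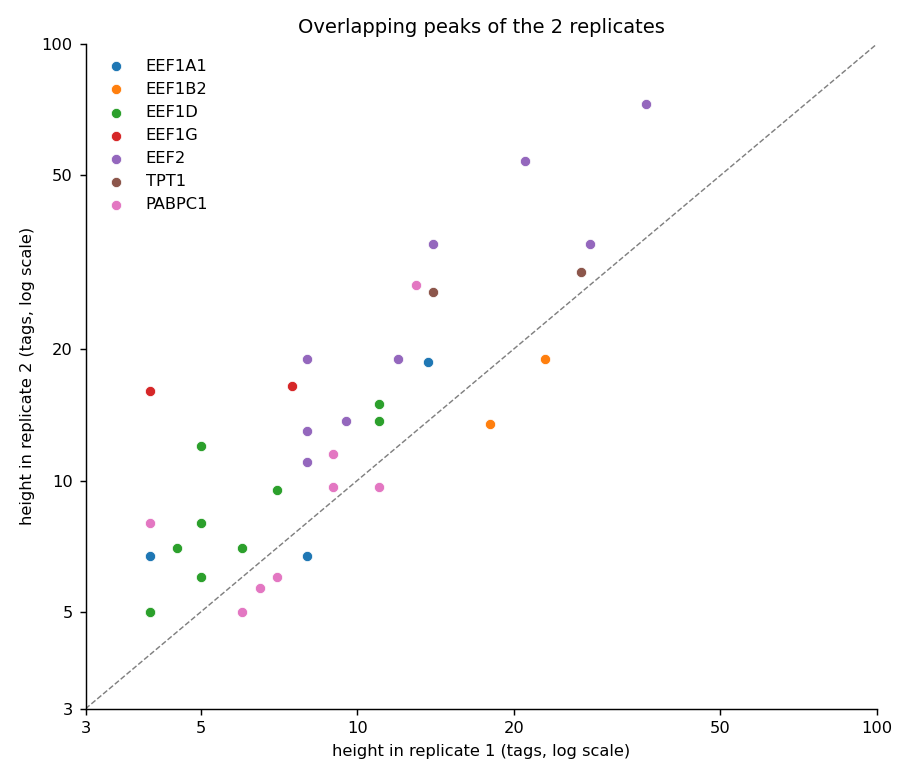
Height in tags in replicate 1 (horizontal) and replicate 2 (vertical), both on log scales, of each of the 36 overlapping peak pairs, coloured by gene, with a dashed line of equal height. Most pairs lie above the line, EEF2 reaches 36 and 73 tags, and both EEF1B2 pairs, whose replicate 2 peaks are the longer ones, lie below it.

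Of the genes' peaks, 12 of 69 in replicate 1 (17.4%, 10.2 to 28.0) and 6 of 86 in replicate 2 (6.98%, 3.24 to 14.4) were centred under 500 nt from the 5′ end of the gene. All 9 genes are shorter than 20 kb, and over all named protein-coding genes under 20 kb the shares were 13.5% and 13.0%. Of tall peaks, 6 of 21 (28.6%) and 5 of 35 (14.3%) lay there, against 24.7% and 17.7%. All 4 shares of the shorter genes lie inside the intervals of the members or, for tall peaks, inside 13.8 to 50% and 6.26 to 29.4%.

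No peak of the genes overlapped a small RNA hosted in them. The nearest were an 18-tag peak of EEF1B2 50 nt from SNORD51 and a 19.8-tag peak of EEF2 57 nt from SNORD37, both in replicate 2.

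Among 45 further genes of elongation, poly(A) binding and tail formation, 32 were matched to an identifier by position. Of the 45, 23 had sense peaks in both replicates, 6 had tall peaks in both and 4 had tall peaks that overlapped. Over all identifiers with a sense peak in either list these shares were 59.5%, 3.96% and 2.96%. EIF5A, the hypusinated factor that helps stalled ribosomes on, reached 16 tags in replicate 1 and 40 in replicate 2. LARP1, the binder of TOP mRNAs, reached 20 and 24.5 tags, and CPSF1, a subunit of the cleavage and polyadenylation complex, 15 and 26. PAPOLA, the poly(A) polymerase, reached 10 and 12 tags. PAIP2, an inhibitor of poly(A)-binding protein, had 13 and 19 tags, and ZC3H14, a nuclear poly(A)-binding protein, 10 and 10, at places that did not overlap. VARS1, the valyl-tRNA synthetase bound to the eEF1 complex, reached 7 and 12.5 tags, and EEF1E1 was not matched to an identifier.

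The closest gene classes were the ribosomal protein genes, which are TOP mRNAs too, and the initiation factor genes. Of 80 ribosomal protein genes, 65 were matched and 50 had tall peaks in both replicates. Of 46 initiation factor genes, 38 were matched and 13 had tall peaks in both. Over all identifiers with a sense peak in either list, 3.96% had tall peaks in both. The median height of a gene's highest peak was 18.0 and 23.5 tags in the 8 members, 15.8 and 27.5 in the ribosomal protein genes, and 6.50 and 11.5 in the initiation factor genes, against 4 and 6 over all identifiers. These differences were not tested, and the levels of the mRNAs in the cells were not analysed here.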

How the data were processed

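IGF2BP2-bound RNA of Jurkat cells was sequenced in 2 immunoprecipitated libraries. Per the study's methods, the authors aligned reads with TopHat2 to GRCh38 (builds and tools also per the submitters' processing notes), kept uniquely mapped reads only, clustered overlapping reads into peaks with the ABLIRC strategy, tested each height by simulation within its gene, and removed peaks that overlapped input peaks. Members with near-identical processed pseudogenes are uncertain for this reason, and a peak absent from one list may have been removed there, which was not tested. The deposited height is a signal in tags, and the deposited p-value of a peak reached at most 0.00759 in replicate 1 and 0.00437 in replicate 2. Height times the number of 50 nt bins was whole (within 0.01 tags) in 100% of peaks, as a mean over bins would be. The lowest sense peak had 4 tags in replicate 1 and 5 in replicate 2.

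Peaks were assigned by the deposited gene identifier and checked by RefSeq position (GRCh38.p14). By position, 14036 of the 20428 identifiers with a sense peak were given a gene name. An identifier was named where a single protein-coding RefSeq gene, with 1000 nt on each side, held at least 80% of its CDS and UTR peaks. Without such peaks, a single gene had to hold all its peaks. All 9 members were described with the highest peak of each replicate and the tall peaks shared by both. The members and lists were chosen with earlier results of these data known. Shares carry 95% Wilson intervals. Python 3.11.15, pandas 2.3.3, numpy 2.4.6, scipy 1.17.1 and matplotlib 3.10.9 were used, and the steps were tested on simulated data. Alternatives were other height and p limits, members by position, exonic peaks, weighting of regions, other overlap rules, leaving out a replicate and, added after seeing the data, tags summed over bins.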

Additional observations from a re-analysis of the deposited data

Results flagged for a closer look

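Antisense peaks assigned to the genes belong to none of the comparisons above, and are given here as signal outside them, with no control level, since the input libraries were not analysed. There were 7 in replicate 1 and 1 in replicate 2. In replicate 1 the highest had 4 tags under EEF1B2, 6 under EEF2, 4 under PABPC1 and 4 under TPT1. The one assigned to EEF1A1 (73511200 to 73511250) had 4 tags and lay beyond the 3′ end of the RefSeq gene. The EEF2 antisense peak of replicate 2 had 9 tags and lay at exactly the place of the 73-tag sense peak, and the PABPC1 one lay at the place of a 7-tag sense peak.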

How the results depend on the processing

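With peaks of at least 10 tags only, the genes had a mean of 28.0 peaks per replicate and a CDS share of 69.0%, and with peaks of a deposited p under 0.001, 41.5 peaks and 63.0%. Counting a peak as CDS when any of its length was CDS gave 63.1%. With tall set at 15 tags, 4 genes had a tall peak in both replicates, and at 20 tags 3 genes. With tall set as the highest 2% of each list, from 10.5 tags in replicate 1 and 16.0 in replicate 2, it was 5 genes. Fewer peaks, fewer tall genes and a wider CDS count follow from these definitions, while the cause of the higher CDS share among taller or lower-p peaks was not tested. Leaving out each replicate in turn gave 69.0 to 86.0 peaks, a CDS share of 47.8 to 52.3%, 8 genes with a peak and 6 to 8 genes with a tall peak. The overlap share needs both lists and has no such value. Members found by position gave 9 genes with peaks in both replicates, PABPN1 included. With exonic peaks only, the mean highest peak fell from 54.5 to 41.0 tags in EEF2 and from 20.5 to 14.5 in PABPC1, and an SD over 2 libraries is too wide to judge such shifts. Summed tags in place of heights, added after seeing the data, gave 30 pairs higher in replicate 2, against 29. Depth is unknown in both lists, heights of longer peaks are means, the input libraries were not analysed, and the mRNA levels are not given. No result comes from a test, and the pairs of overlapping peaks of the 2 replicates were described only.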
